A study of Homo sapiens with 4 samples.

Results

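Chromosome 17 held 2406 of the 39507 anchors at which SMC1 ChIA-PET of Kelly neuroblastoma cells was counted, 6.09% of all. An anchor is a short interval, usually about 1 kb, in which the ends of joined fragments piled up. All anchors listed on chromosome 17 in either table were taken and divided by midpoint, in hg19, into 4 segments. Proximal q lay between 22.2 and 39 Mb with 335 anchors, middle q between 39 and 58 Mb with 629, and distal q above 58 Mb with 1011. The p arm, below 22.2 Mb, had 431. All 2406 occurred with shBORIS and 2405 with shLUC.

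ChIA-PET ligates DNA fragments held by an immunoprecipitated protein and reads both ends of each product as a paired-end tag, or PET. The protein here was SMC1, a subunit of the cohesin ring. One group was 2 libraries of Kelly cells infected with shBORIS, a short hairpin construct named for BORIS, the testis-type paralogue of CTCF. Its control was 2 libraries infected with shLUC. BORIS levels were not analysed here. All cells of both groups came from a Kelly line resistant to the ALK inhibitor TAE684 and kept in 1 µM of it. They were infected for 24 h and selected with puromycin for 48 h. Kelly is 1 established cell line, and each group's libraries are pooled in 1 table, so the spread between libraries was not measured here.

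Cohesin extrudes DNA into loops and stops at CTCF sites that face each other, which leaves paired anchors at a loop's base. Gain of distal 17q is the most frequent segmental change in neuroblastoma and often arises by an unbalanced translocation that joins 17q to 11q or 1p. The long arm carries the HOXB cluster, TBX2 and SOX9. A PET whose ends lie on different chromosomes is used below as a rough proxy of copy number, which was not measured here. The proxy itself was not tested. It also moved with anchor width: in distal q the mean was 10.6 per anchor under 1000 bp and 140 at 3000 bp or more.

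With shBORIS there were 449979 PETs, of which 163041 joined anchors of 1 chromosome, and with shLUC 434975, of which 146140 did. Chromosome 17 anchors took part in 44181 interchromosomal PETs of the shBORIS table and 42943 of the shLUC table. They held 16697 and 14103 intrachromosomal PETs, 10.2% of all such PETs in the shBORIS table and 9.65% in the shLUC table, against 6.09% of anchors.

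Anchors were dense in middle and distal q. Distal q had 43.7 anchors per Mb, middle q 33.2 and proximal q 20.0, against 19.4 in the p arm. The median gap between neighbours was 8.37 kb in distal q, 12.2 kb in middle q and 18.5 kb in proximal q, against 19.9 kb in the p arm. Anchors of middle and distal q were also wider, with medians of 1366 and 1311 bp, while proximal q had 1186 bp, the p arm 1141 bp and the rest of the genome 1167 bp. Wide anchors of at least 3 kb made up 7.72% of distal q and 4.61% of middle q, against 1.16% of the p arm and 1.90% of the rest of the genome.

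Middle and distal q had a higher mean of interchromosomal PETs per anchor than any other chromosome, and proximal q and the p arm did not. With both tables summed, the mean was 42.3 per anchor in middle q, 39.3 in distal q and 27.8 in proximal q, against 26.6 in the p arm and 28.7 in the rest of the genome. The ratio to the p arm was 1.59 (95% interval 1.55 to 1.62) in middle q, 1.47 (1.44 to 1.51) in distal q and 1.04 (1.02 to 1.07) in proximal q. Against the rest of the genome, middle q stood at 1.47, distal q at 1.37, proximal q at 0.968 and the p arm at 0.929. All 22 other chromosomes had a lower mean than middle and distal q, 11 had a lower one than proximal q and 8 than the p arm. By median, 22 lay below middle q, 19 below distal q, 13 below proximal q and 7 below the p arm. These ranks set segments against whole chromosomes, whose own stretches also vary.

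Each table alone gave the same order. In the shBORIS table the means were 21.7 in middle q, 19.7 in distal q and 14.2 in proximal q, against 13.5 in the p arm. In the shLUC table they were 20.6 in middle q, 19.6 in distal q and 13.6 in proximal q, against 13.2 in the p arm. Medians lay closer together, at 29 in middle q, 24 in distal q and 22 in proximal q, against 21 in the p arm. A few anchors carried much of the mean: 79 anchors of distal q with over 100 interchromosomal PETs held 30.9% of that segment's total, and 52 of middle q held 28.4%, against 6 anchors with 5.78% in the p arm.

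**Figure D1:**
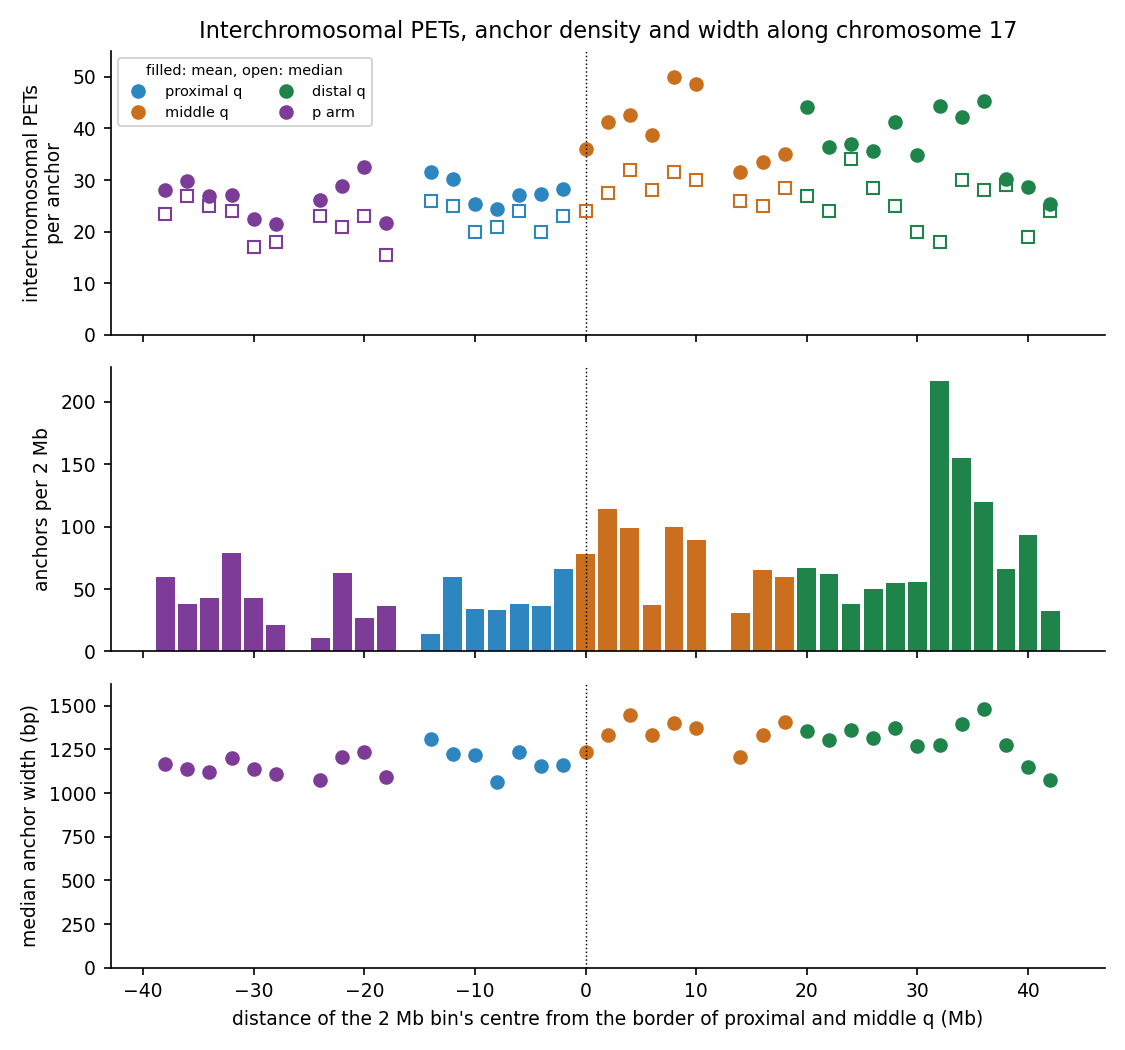
Top, interchromosomal PETs per anchor (mean filled, median open, both tables summed) in 2 Mb bins with at least 10 anchors; middle, anchors per bin; bottom, median anchor width in bp; the x axis is the distance in Mb of a bin's centre from the border of proximal and middle q, and the bin over that border is coloured as middle q. The means step up just right of the border, and the bin of 217 anchors has a low median beside a high mean.

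The plot of 2 Mb bins along the chromosome shows where the rise lay. The mean was 28.3 in the bin from 36 to 38 Mb, 36 from 38 to 40 Mb and 41.3 from 40 to 42 Mb. The medians of these bins rose less, from 23 to 24 and 27.5. Medians were highest, 34, from 62 to 64 Mb, where 38 anchors lay, and lowest, 15.5, from 20 to 22 Mb, with 36 anchors. The largest step between neighbouring bins was 12, between a median of 18 at 70 to 72 Mb and 30 at 72 to 74 Mb. The bin at 70 to 72 Mb was also the densest, with 217 anchors and a mean of 44.4.

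**Figure D2:**
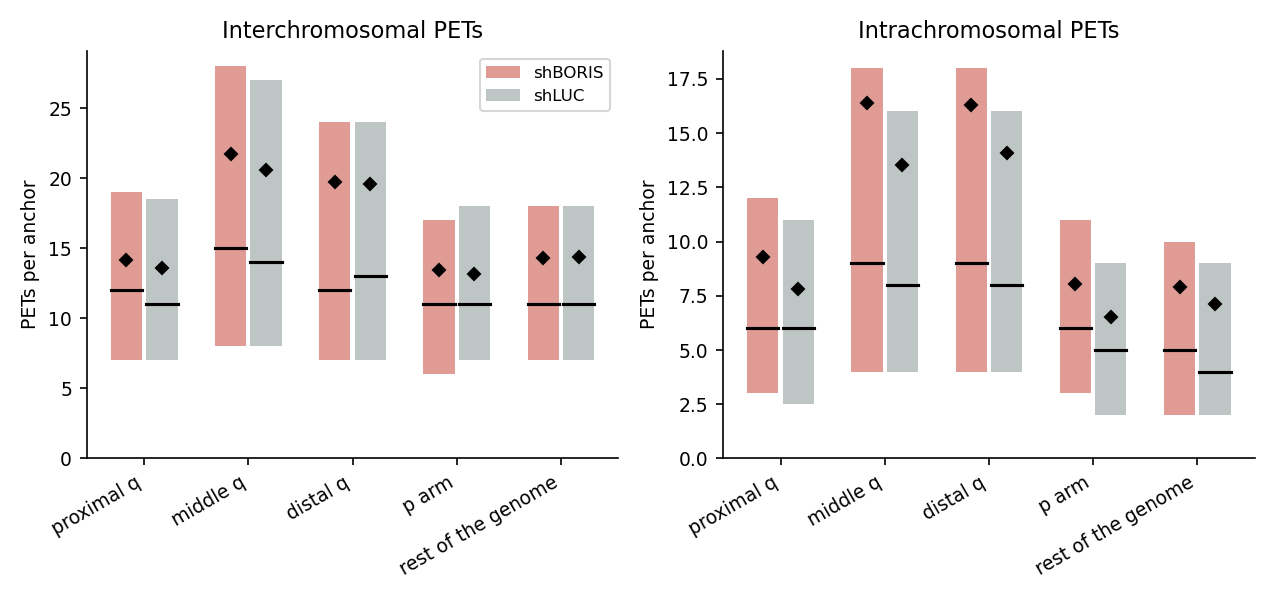
PETs per anchor in the 4 segments and the rest of the genome, interchromosomal left and intrachromosomal right; the bar runs from the lower to the upper quartile, the line is the median and the diamond the mean. By mean, middle and distal q stand highest in both panels in both tables.

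The excess moved with anchor width. Among anchors under 1000 bp the mean was 10.9 in middle q and 10.6 in distal q, against 12 in the p arm. Between 1500 and 3000 bp it was 63.4 in middle q and 55.0 in distal q, against 49.0 in the p arm. At 3000 bp or more it was 142 in middle q and 140 in distal q, against 77.6 over 5 anchors of the p arm. The segments thus differed most among wide anchors, which middle and distal q also had more of. With anchors of 700 to 1500 bp alone, middle q was at 1.05 times the p arm and distal q at 0.903, so the direction for distal q turned. Per kb of anchor width the ratios were 1.25 in middle q and 1.12 in distal q.

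Contact with chromosome 11 was spread thinly, with a local excess at 2 places. Of 3627506 pairs of 1 Mb bins on different chromosomes, 18 passed the exact Poisson test, 0.000496%, and 2 of them involved chromosome 17, both with chromosome 11. Contigs outside the assembled chromosomes counted here as chromosomes of their own, and 11 passed without them. The first joined 39 to 40 Mb of chromosome 17 to 114 to 115 Mb of chromosome 11. It held 23 PETs, 11 in the shBORIS table and 12 in the shLUC table, against 0.621 expected, 37.0-fold more (23.5 to 55.6; adjusted p = 1.24e-22 by the exact Poisson test). The PETs fell on 13 anchor pairs, so no single pair carried them.

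On chromosome 11, the anchor at chr11:114644839-114646363 held 17 of these PETs, 8 in the shBORIS and 9 in the shLUC table, 23.9% of its 71 interchromosomal PETs. The anchor at chr11:114609302-114610454 held 4 of its 40. On chromosome 17, the anchor at chr17:39478196-39479401 held 6 of its 37 interchromosomal PETs, 3 in each table. The anchors at chr17:39818193-39819959 and chr17:39821595-39824218 held 4 each, those of the first all in the shLUC table. The strongest single pair joined chr11:114644839-114646363 to chr17:39478196-39479401, with 2 PETs in the shBORIS table and 3 in the shLUC table.

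Most PETs of the contact lay within 1 Mb on each chromosome. Between 114 and 114.7 Mb of chromosome 11 and 39.2 and 40 Mb of chromosome 17 lay 22 PETs, 10 in the shBORIS and 12 in the shLUC table, against 0.566 expected. With the same stretch of chromosome 17, chromosome 11 from 114.7 to 116 Mb had 0, against 0.389 expected. The interval of that ratio ran from 0 to 9.49, so the 0 cannot show an absence of contact. With the same stretch of chromosome 11, chromosome 17 had 2 from 38 to 39.2 Mb, against 0.659 expected, and 1 from 40 to 42 Mb, against 2.06 expected. These borders were set after seeing the PETs, a choice that favours low counts beyond them. Within 4 Mb of the 2 leading anchors, the 70 anchor pairs outside the bin pair had 1 PET each.

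**Figure D3:**
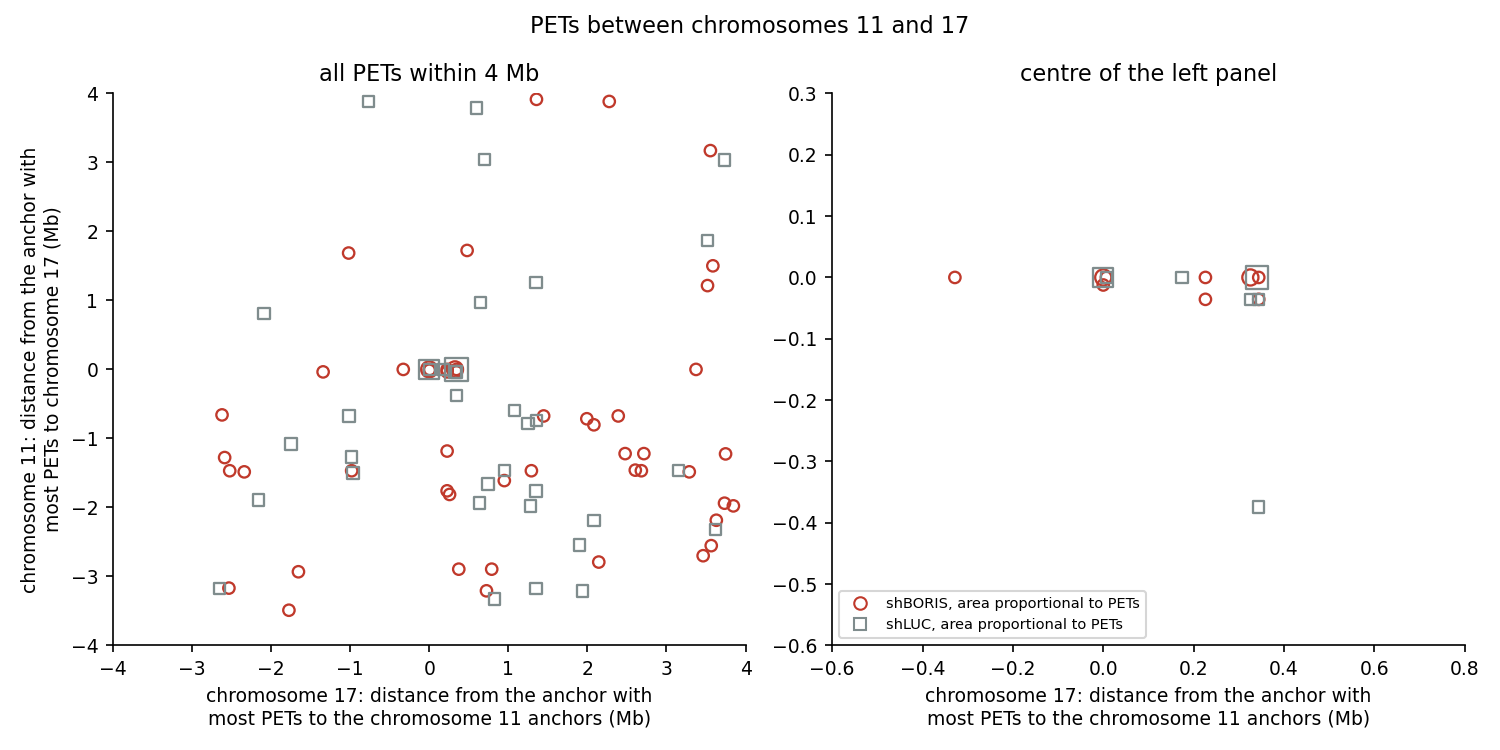
PETs between chromosomes 11 and 17; axes give the distance in Mb from the leading anchor of each, shBORIS as circles and shLUC as squares, with area in proportion to the PETs of an anchor pair. The right panel shows the centre of the left, where no symbol lies above the leading chromosome 11 anchor.

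The 18 chromosome 17 anchors and 3 chromosome 11 anchors around the contact were taken by position, in stretches set after seeing its PETs. Not all of the 18 held such a PET. Their own 21 PETs are therefore a description. Beside these stretches, the 18 anchors had 0 PETs with the 7 anchors in the 800 kb above on chromosome 11. They had 1 with the 18 anchors in the 800 kb below. The 3 chromosome 11 anchors had 1 PET with the 34 anchors in the 800 kb below on chromosome 17. Stretches drawn around the PETs favour low counts beside them, so these counts are a description too.

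Interchromosomal PETs per anchor differed between the flanks of this contact, upwards on chromosome 17 and downwards on chromosome 11. The positions that divide the flanks were chosen after seeing the data. In the 5 Mb above 39.2 Mb of chromosome 17 the mean was 43.1 over 237 anchors, against 27.7 over 150 anchors in the 5 Mb below, a ratio of 1.56 (1.5 to 1.62). On chromosome 11 the 5 Mb above 114.7 Mb had 21.9 over 83 anchors, against 31.2 over 113 below, a ratio of 0.701 (0.662 to 0.742). Over 10 Mb the ratios were 1.68 on chromosome 17 and 0.757 on chromosome 11. Steps also lay elsewhere, in bins of 2 Mb. On chromosome 11 the mean was 35.6 from 56 to 58 Mb and 19.0 from 58 to 60 Mb. On chromosome 17 it was 45.4 from 74 to 76 Mb and 30.3 from 76 to 78 Mb. Medians over 5 Mb were 29 above and 22 below on chromosome 17, and 20 above and 27 below on chromosome 11. Anchor width moved with both steps. Its median was 1366 bp above and 1157 bp below on chromosome 17, and 1040 bp above and 1254 bp below on chromosome 11, and its part in the steps was not tested.

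The second bin pair lay at both chromosome ends, 0 to 1 Mb on each, with 18 PETs, 11 in the shBORIS and 7 in the shLUC table, against 0.479 expected (adjusted p = 5.36e-17, exact Poisson test). Of these, 10 fell on the pair of chr11:189251-190850 and chr17:158530-160298, 6 in the shBORIS and 4 in the shLUC table. As background, the ends of human chromosomes share duplicated sequence, and its part in this contact was not tested. No other bin pair of chromosomes 11 and 17 passed. The next, 54 to 55 Mb of chromosome 17 with 36 to 37 Mb of chromosome 11, had 3 PETs and an adjusted p of 1. The bins 67 to 68 Mb and 81 to 82 Mb of chromosome 17 had 2 PETs each with a bin of chromosome 11, with the same adjusted p. Apart from chromosome 11, the smallest adjusted p of a chromosome 17 bin was 0.125 by the exact Poisson test, for 77 to 78 Mb at 3 PETs. Its partner was an unlocalised contig of chromosome 17, so this was not a contact with another chromosome. The next were 21 to 22 Mb with chromosome X at 3 PETs (0.455), 65 to 66 Mb with chromosome 7 at 7 PETs (0.978), and 62 to 63 Mb with chromosome 18 at 4 and with chromosome 19 at 9 PETs, both at an adjusted p of 1.

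Over whole segments, the intervals of PETs with chromosome 11 over expected included 1 in all 4. The ratios were 1.06 (0.972 to 1.16) in proximal q, 0.983 (0.931 to 1.04) in middle q, 0.984 (0.941 to 1.03) in distal q and 0.995 (0.916 to 1.08) in the p arm. Counted down from the highest ratio of the 22 other chromosomes, chromosome 11 ranked 4th with proximal q, 16th with middle q, 15th with distal q and 10th with the p arm. Of the chromosome 11 and 17 anchor pairs, 4277 had 1 PET and 30 had 2.

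Within chromosome 17, PETs over 2 Mb crossed the segments close to the expected number. The ratio to expected was 1.05 (0.985 to 1.11) between distal and middle q and 1.06 between middle and proximal q. It was 1.07 (0.954 to 1.2) between middle q and the p arm, 0.933 between proximal q and the p arm, and 1.11 (1.01 to 1.21) between distal q and the p arm, where the shLUC table alone gave 0.998.

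Intrachromosomal PETs and loops were denser in middle and distal q. Anchors had a mean of 30.4 intrachromosomal PETs in distal q, 29.9 in middle q and 17.1 in proximal q, against 14.6 in the p arm and 15 in the rest of the genome. This difference also moved with anchor width. Between 1000 and 1500 bp the mean was 17.3 in distal, middle and proximal q alike, against 14.8 in the p arm. Between 1500 and 3000 bp it was 40.6 in distal q, 45.3 in middle q and 36.3 in proximal q, against 28.8 in the p arm. Per interchromosomal PET, distal q had 0.774, middle q 0.708 and proximal q 0.616, against 0.548 in the p arm and 0.523 elsewhere.

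In the shBORIS table, 1322 loops were called on chromosome 17, with 665 in distal q, 396 in middle q and 123 in proximal q, against 138 in the p arm. Of all listed intrachromosomal pairs of the genome, 14.1% were called in that table and 12.9% in the shLUC table. On chromosome 17 the shares in the shBORIS table were 17.7% in distal q, 20.4% in middle q and 17.7% in proximal q, against 16.9% in the p arm. The shLUC table had 1127 calls on the chromosome, with 592 in distal q, 324 in middle q and 109 in proximal q, against 101 in the p arm, and 1 between segments.

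Per 100 anchors, distal q had 65.8 (60.9 to 71.0) loops, middle q 63.0 (56.9 to 69.5) and proximal q 36.7 (30.5 to 43.8), against 32.0 (26.9 to 37.8) in the p arm and 31.8 in the rest of the genome, all in the shBORIS table. In the shLUC table distal q had 58.6, middle q 51.5 and proximal q 32.5, against 23.4 in the p arm and 27.2 in the rest of the genome. Middle q had 1.97 times the p arm's density (1.62 to 2.40) in the shBORIS table and 2.20 times (1.75 to 2.78) in the shLUC table. Distal q had 2.05 times (1.71 to 2.49) in the shBORIS table and 2.50 times (2.02 to 3.12) in the shLUC table. For proximal q the interval of 0.892 to 1.47 around 1.15 in the shBORIS table included 1, and in the shLUC table the ratio was 1.39 (1.05 to 1.84). Loop calls need PETs. Called in either table, middle q had 81.1 per 100 anchors and distal q 87.9, against 41.3 in the p arm. With PETs kept at the p arm's level, middle q had 51.1 and distal q 58.9. Whether that level matched intrachromosomal PETs, on which the calls rest, is not shown here.

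**Figure D4:**
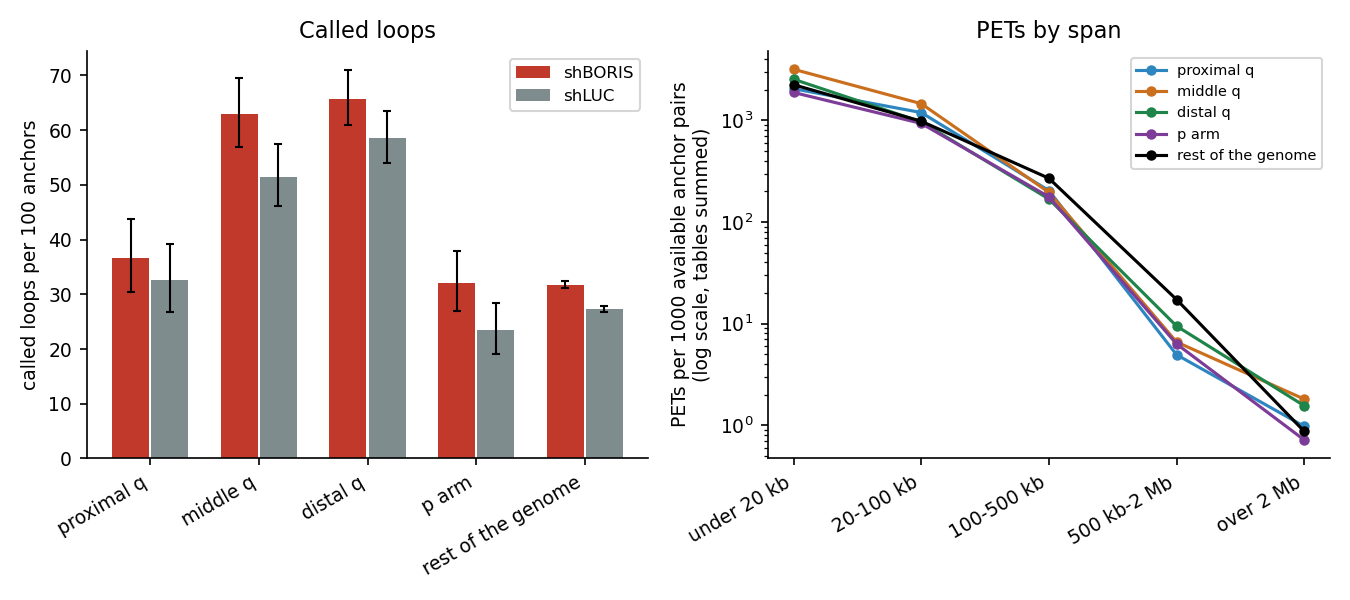
Left, called loops per 100 anchors in the shBORIS and shLUC tables, with 95% intervals of counting error; right, PETs of both tables per 1000 available anchor pairs by span, on a log scale. Distal and middle q have the most loops in both tables, middle q is highest of the lines below 100 kb, and the rest of the genome is highest between 100 kb and 2 Mb.

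The highest numbers of called loops at an anchor of chromosome 17 were in distal q. The anchor at chr17:71634009-71644664 had 22 called loops in the shBORIS table and 16 in the shLUC table. That at chr17:71704418-71710475 had 16 in the shBORIS table, against 11 in the shLUC table. The anchor at chr17:70111550-70122491, named for its interchromosomal PETs and not for its loops, had 12 in the shBORIS table, against 11 in the shLUC table. In middle q the anchors at chr17:43095513-43101201 and chr17:46054835-46058479 led with 9 each in the shBORIS table, against 6 each in the shLUC table. In proximal q the anchor at chr17:38510022-38512354 led with 7 in the shBORIS table, against 6 in the shLUC table, and that at chr17:38458677-38460801 had 6 in each table. In the p arm chr17:17399241-17401152 had 6 in the shBORIS table, against 2 in the shLUC table, and chr17:2832749-2834291 had 5, against 3. No anchor of proximal q or the p arm had more than 7.

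Anchors with at least 5 called loops were a larger share of distal and middle q than of the rest of the chromosome. In the shBORIS table there were 76 in distal q, 7.52% of its anchors, 41 in middle q, 6.52%, and 5 in proximal q, 1.49%, against 3 in the p arm, 0.696%, and 1.67% of anchors in the rest of the genome. In the shLUC table there were 64 in distal q, 6.33%, 24 in middle q, 3.82%, and 2 in proximal q, 0.597%, against 0 in the p arm and 1.04% in the rest of the genome.

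Some anchors with most interchromosomal PETs were wide. In distal q, chr17:71634009-71644664, 10656 bp wide, had 232 in the shBORIS table, against 183 in the shLUC table, and chr17:70111550-70122491 had 182 shBORIS against 205 shLUC PETs. In middle q, chr17:46067619-46075229 had 189 shBORIS against 94 shLUC PETs and chr17:48276781-48280218 had 112 shBORIS against 136 shLUC PETs. In proximal q, chr17:38510022-38512354 had 58 shBORIS against 42 shLUC PETs and chr17:38458677-38460801 had 54 shBORIS against 51 shLUC PETs. In the p arm, chr17:17257649-17260643 had 64 shBORIS against 65 shLUC PETs and chr17:4468377-4471090 had 58 shBORIS against 64 shLUC PETs.

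The leading pair of distal q joined chr17:71577344-71586974 to chr17:71634009-71644664 with 57 PETs in the shBORIS table, against 39 in the shLUC table. In middle q, chr17:46067619-46075229 and chr17:46079167-46083101 had 79 shBORIS against 47 shLUC PETs, and chr17:47937247-47940668 and chr17:48071814-48076569, 135 kb apart, had 75 shBORIS against 42 shLUC PETs. In proximal q, chr17:38458677-38460801 and chr17:38510022-38512354 had 16 shBORIS against 27 shLUC PETs. In the p arm, chr17:17714736-17716555 and chr17:17762839-17764523 had 17 shBORIS against 11 shLUC PETs. All of these pairs but that of proximal q had more PETs in the shBORIS table, which was also the deeper. Divided by each table's intrachromosomal total, the ratio was 1.31 (0.857 to 2.02) in distal q. It was 1.51 (1.04 to 2.21) and 1.60 (1.08 to 2.39) for the 2 pairs of middle q. Proximal q had 0.531 (0.267 to 1.02) and the p arm 1.39 (0.612 to 3.27).

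Of the other leading pairs, those of middle and distal q also had more PETs in the shBORIS table, and those of proximal q and the p arm varied. These counts are not scaled to depth. In distal q, chr17:72374654-72377256 and chr17:72449136-72454831 had 52 PETs in the shBORIS table, against 38 in the shLUC table, and chr17:74518438-74521805 and chr17:74542289-74545162 had 51 shBORIS against 37 shLUC PETs. In middle q, chr17:46054835-46058479 and chr17:46094537-46096731 had 45 shBORIS against 32 shLUC PETs. In proximal q, chr17:32526496-32527945 and chr17:32687936-32689379, 161 kb apart, had 14 shBORIS against 11 shLUC PETs, and chr17:37777693-37779070 and chr17:37779158-37780444, neighbours, had 18 shBORIS against 19 shLUC PETs. In the p arm, chr17:16355898-16357469 and chr17:16423972-16425445 had 12 shBORIS against 14 shLUC PETs, and chr17:19264884-19269031 and chr17:19349885-19351300 had 16 shBORIS against 8 shLUC PETs. The 3 leading pairs ranked 3rd, 4th and 21st of the genome in middle q, 9th, 12th and 13th in distal q and 109th, 163rd and 446th in proximal q, against 324th, 405th and 495th in the p arm.

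The tests between the tables found no leading pair past the threshold. Adjusted p by Fisher's exact test was 0.737 for the first pair of middle q, 0.689 for the second and 0.817 for the first of proximal q.

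Median spans were similar in all 4 segments. The median span of intrachromosomal PETs within a segment was 64.9 kb in distal q, 63.3 kb in middle q and 61.4 kb in proximal q in the shBORIS table, against 68.0 kb in the p arm and 106.9 kb in the rest of the genome. In the shLUC table it was 65.8 kb in distal q, 66.2 kb in middle q and 58.1 kb in proximal q, against 65.0 kb in the p arm and 117.9 kb in the rest of the genome. The 4 segments thus lay within 10 kb of each other in each table. Between 20 and 100 kb middle q had 802 PETs per 1000 available anchor pairs in the shBORIS table, distal q 524 and proximal q 629, against 497 in the p arm and 525 elsewhere. Under 20 kb the shBORIS rates were 1851 in middle q, 1373 in distal q and 1175 in proximal q, against 1076 in the p arm and 1229 elsewhere. Between 500 kb and 2 Mb they were 3.48 in middle q, 5.07 in distal q and 2.38 in proximal q, against 2.62 in the p arm and 8.89 elsewhere, so all 4 segments lay below the rest of the genome there. A segment caps the span within it, and PETs between segments, 1313 in the shBORIS and 1163 in the shLUC table, were left out. Neither the median span nor the share over 2 Mb is therefore comparable with that of whole chromosomes.

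Chromosome 17 held a slightly larger share of PETs in the shBORIS table than in the shLUC table. A scaled ratio divides shBORIS by shLUC PETs after each is divided by its table's total of the same kind. Interchromosomal ratios were 1.06 (1.04 to 1.09) in middle q, 1.02 (0.996 to 1.04) in distal q and 1.05 in proximal q, against 1.03 (0.993 to 1.07) in the p arm. Intrachromosomal ratios were 1.1 (1.05 to 1.15) in middle q, 1.04 (1.00 to 1.07) in distal q and 1.08 (0.994 to 1.16) in proximal q, against 1.11 (1.03 to 1.2) in the p arm. Under 20 kb they were 1.24 (1.13 to 1.35) in middle q and 1.05 (0.982 to 1.12) in distal q and 1.2 (1.01 to 1.42) in proximal q, against 1.19 (1.01 to 1.4) in the p arm and 1.08 in the rest of the genome. Between 100 and 500 kb they were 1.01 in middle q, 1.02 in distal q and 1.15 (0.996 to 1.33) in proximal q, against 1.23 (1.07 to 1.41) in the p arm and 0.975 in the rest of the genome.

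**Figure D5:**
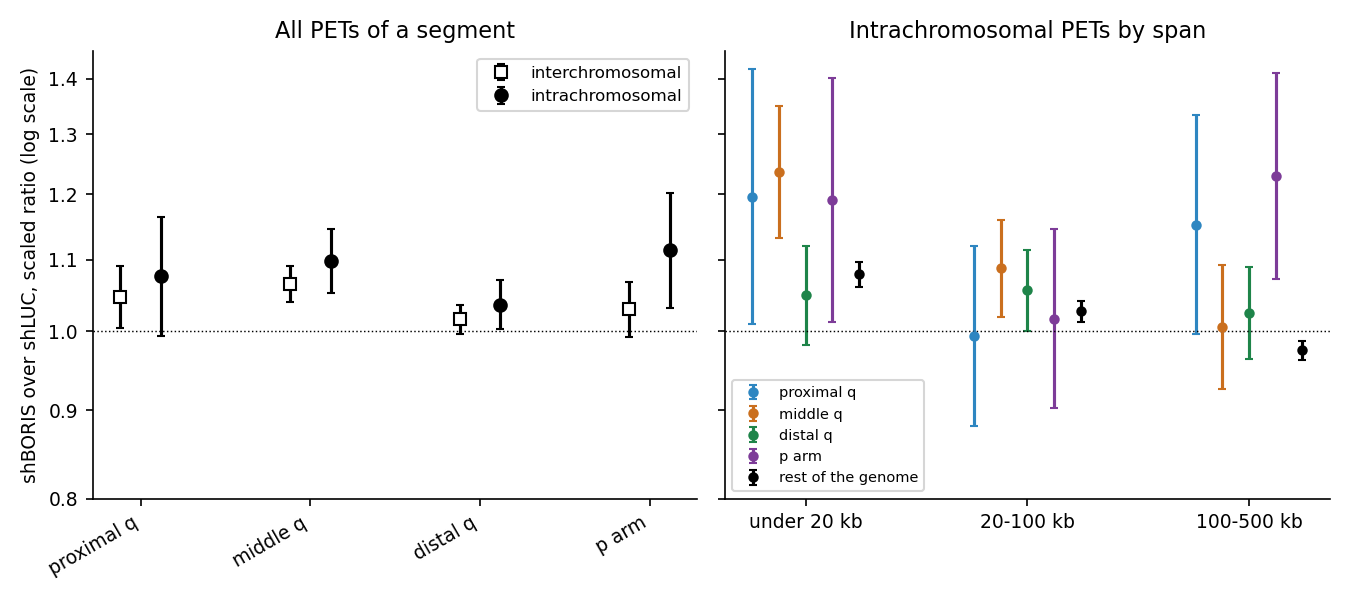
Scaled shBORIS over shLUC ratios of the 4 segments, with 95% intervals of counting error; 1 means equal shares of both tables' PETs. Left, all PETs of a segment, right, intrachromosomal PETs by span, on a log axis; the 4 segments lie above 1 in the left panel, and the intervals of middle q start at 1.04 and 1.05.

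Of loops called in the shBORIS table, 55.3% were also called in the shLUC table in distal q, 53.0% in middle q and 52.0% in proximal q, against 44.2% in the p arm and 47.4% in the rest of the genome. Of loops called in the shLUC table, 62.2% were also called in the shBORIS table in distal q, 64.8% in middle q and 58.7% in proximal q, against 60.4% in the p arm and 55.3% in the rest of the genome. In middle q 186 loops were called in the shBORIS table alone and 114 in the shLUC table alone, with 210 in both. In the rest of the genome these counts were 6201, 4521 and 5588. The calls were not corrected for depth, which was 163041 intrachromosomal PETs in the shBORIS table, against 146140 in the shLUC table.

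Fisher's exact test called none of the 496 chromosome 17 pairs tested, where 0.0506% passed over the genome. The smallest adjusted p was 0.370. At an unadjusted p under 0.05 there were 26, or 5.24%, with 15 higher in shBORIS and 11 lower, against 5.69% of all pairs. Of 1581 anchors tested on intrachromosomal PETs, 1 passed, against 0.0204% over the genome and 0.0153% that passed as higher in shBORIS. At an unadjusted p under 0.05 there were 107, or 6.77%, with 72 higher and 35 lower in shBORIS, against 6.43% of all anchors. Of 2135 tested on interchromosomal PETs, 1 passed, against 0.0140% over the genome. Unadjusted, 124 or 5.81% were under 0.05, with 82 higher and 42 lower, against 5.56% of all. The split by direction over the genome is not given here, so these splits are not shown to be particular to chromosome 17. Anchors that share PETs are also not independent. The anchor that passed both tests was chr17:46067619-46075229, which had 229 intrachromosomal PETs in the shBORIS table, against 121 in the shLUC table, a scaled ratio of 1.7 (1.36 to 2.13; adjusted p = 0.0146 by Fisher's exact test). Its interchromosomal PETs were 189 in the shBORIS table, against 94 in the shLUC table, a scaled ratio of 2.02 (1.57 to 2.62; adjusted p = 0.000211 by Fisher's exact test).

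Of 74 windows of 1 Mb on chromosome 17, 2 passed Fisher's exact test, both higher in shBORIS, where 0.626% passed over the genome and 0.385% as higher. Unadjusted, 8 of the 74, or 10.8%, were under 0.05, with 7 higher and 1 lower, against 10.4% of all windows. For windows too, the split by direction over the genome is not given. The window from 46 to 47 Mb had 709 PETs in the shBORIS table, against 506 in the shLUC table, a scaled ratio of 1.26 (1.12 to 1.41; adjusted p = 0.0252 by Fisher's exact test). Without the anchor just named, it had 498 shBORIS against 393 shLUC PETs and a ratio of 1.14 (0.993 to 1.3; adjusted p = 0.523 by Fisher's exact test), so its call rested on 1 anchor. The window from 48 to 49 Mb had 796 shBORIS against 585 shLUC PETs, a ratio of 1.22 (1.09 to 1.36; adjusted p = 0.0421 by Fisher's exact test), and held no PET of that anchor. Its interchromosomal ratio was 1.07 (0.997 to 1.14), and that of the window from 46 to 47 Mb was 1.22 (1.13 to 1.31).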

How the data were processed

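SMC1 ChIA-PET was read from 1 table per group. The labels of each group's 2 libraries point to 1 shared table, which was taken as their pool. Tools named in the submitters' processing notes include cutadapt 1.8 and Bowtie, with genome build hg19. For anchor definition and pair scoring, the program is not given in the sources used here. A deposited PET count per anchor pair was taken as an unnormalized count, since its values are whole numbers. The p-value column of the deposited tables, named hypergeometric per the file headers, played no part in calling. Per the file headers the Bayes probability is a fraction. The shBORIS table has no header line and was read in the order of the 9 columns that the shLUC header names. Starts were taken as counted from 0 and are printed with the first base as 1.

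A called loop was an intrachromosomal pair of 3 or more PETs whose Bayes probability reached 0.9. Expected PETs between regions came from the product of their interchromosomal ends. All pairs of 1 Mb bins with anchors on different chromosomes were tested with a one-sided exact Poisson test, and a call also needed at least 5 PETs. Pairs, anchors and 1 Mb windows with at least 10 PETs were compared between the tables by Fisher's exact test, two-sided. Both used Benjamini-Hochberg adjustment over the whole genome and a threshold of 0.05. The 95% intervals are Clopper-Pearson or exact Poisson intervals. These describe counting error alone: the labels mention no molecular identifiers, so PETs may be PCR copies of each other. With 1 table per group no value carries a replicate error, and the tests compare the 2 pools, not the conditions.

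The segments, lists and tests were chosen with earlier results of these data known. The positions that divide the flanks of the chromosome 11 and 17 contact, and 3 alternatives, were chosen after seeing the data. Regions named are, per segment, the 3 pairs with most PETs, the 2 anchors with most called loops and the 2 with most interchromosomal PETs, the bin pairs of smallest p, and all that passed a test. No gene is named for a region, because the available gene table uses GRCh38.p14, another build. Scripts ran in Python 3.11.15 with numpy 2.4.6, pandas 2.3.3, scipy 1.17.1 and matplotlib 3.10.9, and were tested on simulated data.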

Additional observations from a re-analysis of the deposited data

How the results depend on the processing

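Of 101 alternative values for 35 results, 71 stayed near the reported value, 28 moved and 2 reversed; the cause of these changes was not tested. Interchromosomal PETs per anchor over the p arm came to 1.38 in middle q and 1.14 in distal q with medians, to 1.25 and 1.12 per kb of anchor, and to 1.36 and 1.22 without the top 1% of anchors. With anchors of 700 to 1500 bp alone, the ratios were 1.07 in proximal q, 1.05 in middle q and 0.903 in distal q, where the direction reversed. Loops per 100 anchors, called in either table, fell to 22.4, 37.4, 39.9 and 16.2 in proximal, middle and distal q and the p arm at a minimum of 5 PETs. With PETs kept at the p arm's level, middle and distal q had 51.1 and 58.9. The median span, called loops only, was 55.2 kb in proximal, 45.4 kb in middle and 47.8 kb in distal q and 52.7 kb in the p arm. Between facing edges it was 62.7 kb in middle and 62.0 kb in distal q. With the expectation from anchor numbers, chromosome 11 PETs over expected were 0.965, 1.36 and 1.26 in proximal, middle and distal q and 0.866 in the p arm. PETs between distal q and the p arm over expected were 1.22 in the shBORIS table and reversed to 0.998 in the shLUC table. Scaled to all PETs, the intrachromosomal shBORIS over shLUC ratio was 1.18 in middle and 1.12 in distal q. At a minimum of 20 PETs, 8 anchors passed the interchromosomal test, against 5 at 10. No paired analysis was possible because both tables used here are pools of a group's libraries, and for the same reason no library was left out. Most PETs between chromosomes are single, so contacts below a few PETs were not detectable at this depth.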
